A study of Homo sapiens with 2 samples.

Results

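The genes described are the translation initiation and elongation factors, taken as every row of the expression tables whose symbol starts with EIF or EEF. Of 72 such rows, the eIF2 alpha kinases EIF2AK2 and EIF2AK3 and the pseudogenes EEF1DP3 and EIF3IP1 were left out, which left 68 of 26255 gene symbols. Of these, 63 are factors or their direct regulators, 4 are antisense RNAs and 1 is a read-through locus. The 2 libraries, 1 per group, come from OVSAHO cells, a human line established from a serous ovarian cancer. In the perturbed culture, named OVSAHO-A2-siA4 in the design text and labelled "SMARCA2 stable, SMARCA4 knockdown", SMARCA2, an ATPase of SWI/SNF chromatin remodellers, was raised, and SMARCA4, its paralog, was lowered. The control culture was OVSAHO-Ctrl-siNC, with the genotype label WT. Both had 2 days in 25 µM carboplatin, a DNA-crosslinking drug, and no untreated culture was analysed here. The sample titles carry numbers that the labels do not explain, so whether each culture came from 1 clone is not stated.

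SMARCA2 was at 2.60 FPKM in the perturbed library, against 0.205 in the control, and SMARCA4 at 4.49 and 27.9 FPKM, both in the labelled direction. The values are FPKM as the authors deposited them, fragments scaled to transcript length in kilobases and to 1000000 mapped fragments. Of 10 markers of serous ovarian carcinoma, 9 were at 1 FPKM or more in each library, with sums of 1109 FPKM in the perturbed and 1562 in the control. KRT7, an epithelial keratin, accounted for most of that gap, at 119 against 540 FPKM. Some other markers were above the control, with WT1 at 5.52 against 1.53 FPKM, 3.61-fold higher, and PAX8, SOX17 and EPCAM between 1.51-fold and 1.93-fold. KRT8 and KRT18 were below it, at 462 against 488 and at 362 against 420 FPKM. CDH1 and MSLN were close to it, each 1.04-fold above. MUC16 was at 0 in the perturbed library, against 0.0608 FPKM in the control. Of 13 markers of blood, endothelial and fibroblast cells, 7 were at 0 in both libraries, among them PTPRC of leukocytes, DCN of fibroblasts and HBB of erythroid cells. The part of these marker differences in the results was not tested. About 8850000 fragments lay behind the perturbed library and 9050000 behind the control, as estimated from the smallest steps of the values. With 1 library per group there was no replicate error and no test. The 95% interval in brackets after a fold covers counting error alone, not the spread between cultures. A lower value in bulk RNA cannot be told apart from fewer cells that make the transcript.

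Translation starts when eIF2, loaded with GTP and initiator tRNA, joins the small ribosomal subunit together with eIF1, eIF1A, eIF3 and eIF5. The eIF4F complex, made of the cap-binding eIF4E, the helicase eIF4A and the scaffold eIF4G, brings this assembly to the mRNA cap, and eIF5B then joins the large subunit. eEF1A delivers aminoacyl-tRNAs during elongation and eEF2 moves the ribosome along. Stress kinases phosphorylate eIF2 and thereby block its exchange factor eIF2B, while mTOR controls eIF4E through the 4E-binding proteins. Several of the factors are themselves encoded by mRNAs that begin with a cytosine and a run of pyrimidines, the 5′ terminal oligopyrimidine or TOP start, through which mTOR and LARP1 control their translation.

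The first bases of the transcripts are shown because they divide the factors into those with and without a TOP-like match at the annotated start. The windows hold 30 bases of the gene's strand, 20 before the annotated start and 10 from it on, from RefSeq on GRCh38.p14. Capitals mark a C at the start followed by 4 bases that are each C or T. Of 12 factors with that start, 6 had ratios above 0 and 6 below. EIF2A, EIF2D, EIF3D, EIF3M and EIF4A2, which have it, are not printed, and all of them were below the control. The first 7 printed have that start.
EEF1A1, chr6:73521023-73521052, minus strand: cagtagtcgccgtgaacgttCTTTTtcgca
EEF2, chr19:3985454-3985483, minus strand: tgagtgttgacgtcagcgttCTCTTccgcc
EEF1B2, chr2:206159875-206159904, plus strand: attttccggtctcttcgggtCCTTTttcct
EIF4B, chr12:53006436-53006465, plus strand: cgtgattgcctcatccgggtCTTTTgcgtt
EIF3F, chr11:7987317-7987346, plus strand: gtcatttccgcttccgcctcCTTCTttctc
EIF3K, chr19:38619168-38619197, plus strand: gtcgtttccgtttccaccacCTCTTcctgt
EIF2S3, chrX:24054936-24054965, plus strand: cagccggggtgatttccttcCTCTTttggc
The next 4 do not have it. They belong to genes whose ratios are described below.
EIF5B, chr2:99337369-99337398, plus strand: cgcttgcgcactgagaactcacaccatatg
EIF3B, chr7:2354807-2354836, plus strand: ggcctccccgtcgcacgcacatggctgggc
EIF4A1, chr17:7572805-7572834, plus strand: tcgataggcgggcactccgccctagtttct
EIF4G2, chr11:10807987-10808016, minus strand: gcggggaggttgtcggaagcacttccctaa
EIF4G2 and EEF1B2 each have another annotated start, without these letters.

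The factors were abundant genes. EIF1AY is Y-linked and its level is not given. Of the other 67 members, 60 reached 1 FPKM in either library or both, and 56 in both. The other 4, EIF4G3, EEF1E1-BLOC1S5, EEF1A2 and EEF2K, passed through the perturbed library alone, so their ratios could only be above 0. The median level of the 60 was 71.3 FPKM in the perturbed library and 83.4 in the control, against 8.25 and 8.53 FPKM for all genes under the same filter. All members together made up 1.74% of the FPKM in the perturbed library and 1.63% in the control. EEF1A1 was the most abundant member in the perturbed library, and EIF6, a factor that keeps the ribosomal subunits apart, in the control.

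The log2 ratio of a gene was taken as perturbed over control with 1 FPKM added to each value. A gene was called higher from a log2 ratio of 1 upwards and lower from -1 downwards, provided it reached 1 FPKM in either library. By this rule 6 of the 60 members were higher, which is 10% against a background of 7.85% of 11785 genes. A single member, EIF4G2, was lower, which is 1.67% against a background of 7.61%. The share of higher members is near the background. The other 53 members lay within 2-fold. Of the 6 higher members, EIF4G3 and EEF1E1-BLOC1S5 passed the filter through the perturbed library alone. With 1 FPKM required in both libraries, 4 of 56 members were higher, against 5.45% of 10216 genes. Over the 60 members the median log2 ratio was -0.09, against -0.06 for all 11785 genes. At a mean of 50 FPKM or more the medians were -0.10 for 35 factors and -0.23 for 2246 genes. With the trends of the ratio with length, GC content and level removed, they were -0.03 for the members and -0.06 for all genes. Whether the members lay below or above all genes thus depended on the comparison. A ratio below 0 was seen in 35 of the 60 (58.3%, against 53.5% of all genes). Scaling both libraries to a common sum moved the median of all genes by over 0.1 on the log2 scale, to 0.06, and that of the members to 0.05, so ratios near 0 have no settled sign. That scaling left the counts of members at 6 and 1, while over all genes 10.5% were then higher and 5.80% lower. The log2 ratios of the members had an interquartile range of -0.50 to 0.26 and an SD of 0.65 over genes, against -0.51 to 0.44 and 0.78 for all genes, and were thus somewhat less spread.

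**Figure D1:**
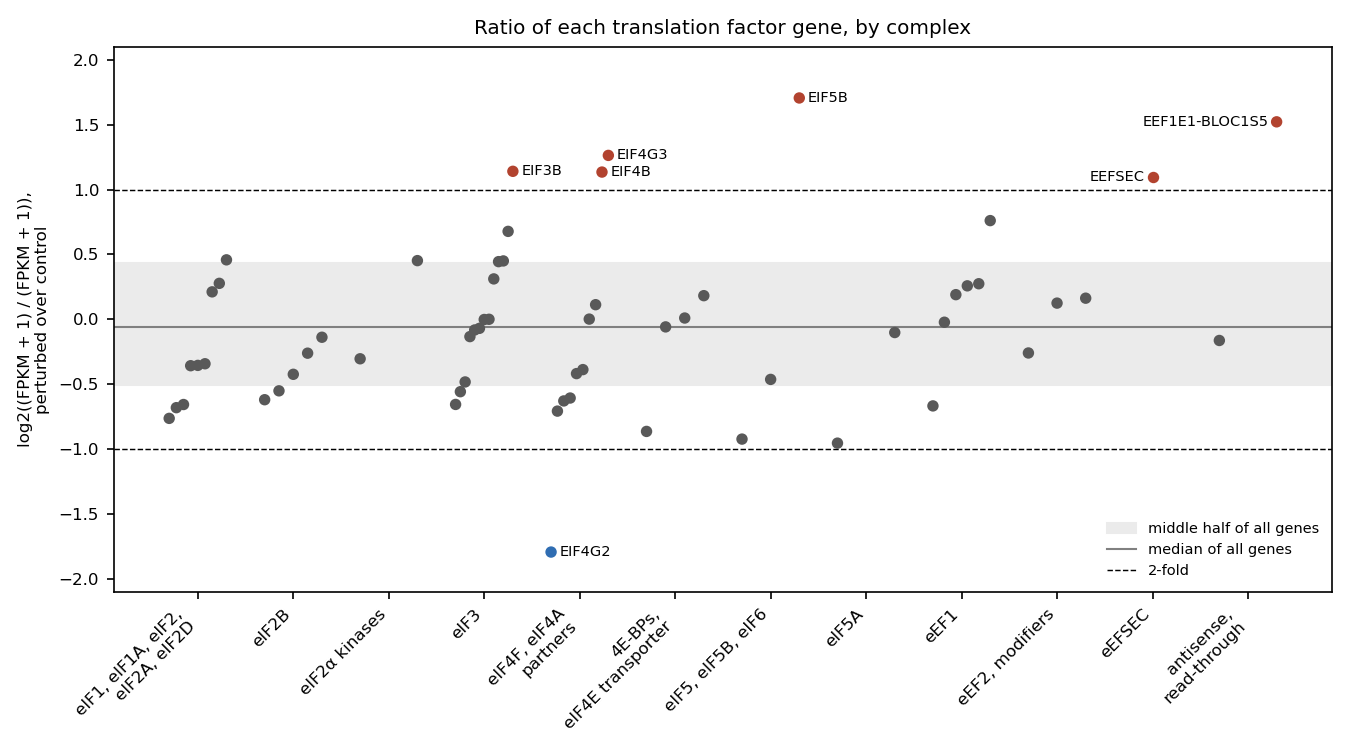
Log2 ratio of perturbed over control, with 1 FPKM added to each value, for the 60 members that passed the filter, grouped by complex, 1 point per gene. The band is the interquartile range of all genes, the dashed lines mark 2-fold, and the 7 genes beyond them are named, with EIF5B at 1.71 and EIF4G2 at -1.79.

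Of the EEF rows, 8 were at 1 FPKM or more in both libraries, with a median log2 ratio of 0.21, and 5 of these were above 0. Of the EIF rows, 48 were, with a median of -0.21, and 16 were above 0. Rows that passed through the perturbed library alone are left out of these counts. Among all rows that passed, signs turned under at least 1 other setting for 3 of the EEF rows and 8 of the EIF rows. The summed level of the EEF rows that passed was 5719 FPKM in the perturbed library and 4140 in the control. EEF1A1 alone was 3162 and 1865 FPKM of these sums, and its value is uncertain for the reason given below. Without EEF1A1 the summed eEF1 level was 1.12-fold higher than in the control. The summed level of the EIF rows was 9387 and 11398 FPKM. This split by name was made after the values were seen and was not tested.

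Among the factors that bring the initiator tRNA to the ribosome, no gene of 9 was past 2-fold. A ratio below 0 was seen for 6 of them, against 53.5% of all genes. EIF1, which guards start codon choice, was the most abundant, at 469 FPKM in the perturbed library and 798 in the control, 1.70-fold lower (1.66 to 1.74), the lowest ratio of the group. Its close paralog EIF1B was at 105 against 166 FPKM, and EIF1 made up 81.8% of the pair's FPKM in the perturbed library and 82.8% in the control. The pair kept nearly the same proportion, with both ratios below 0.

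The 3 subunits of eIF2, which bind each other in equal numbers, had unequal ratios. The gene of the alpha subunit, the target of the stress kinases, is EIF2S1. It was at 33.2 FPKM in the perturbed library, against 53.8 in the control, 1.62-fold lower (1.51 to 1.74). EIF2S2, the beta subunit, was at 286 against 236 FPKM. EIF2S3, the GTP-binding gamma subunit, was at 73.2 against 53.0 FPKM, 1.38-fold higher (1.28 to 1.49) and the highest ratio of the group. EIF2S1 stood at 0.453 times the FPKM of EIF2S3 in the perturbed library and 1.01 times in the control. This ratio was 2.24-fold lower in the perturbed library (2.02 to 2.48), and it does not depend on how the libraries are scaled to each other. The pair joins the lowest and the highest of the 3 subunits and was chosen after the values were seen. EIF1AX, which works beside EIF1, was at 51.0 against 43.9 FPKM, and EIF1AD, a protein with an EIF1A-like domain, at 29.6 against 37.8 FPKM. EIF2A and EIF2D, which can load tRNA without eIF2, were at 14.9 against 19.4 and at 26.6 against 34.3 FPKM.

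All 5 subunits of eIF2B, the exchange factor that recharges eIF2, had ratios below 0, as did 53.5% of all genes. None was past 2-fold. The median log2 ratio was -0.42, against -0.06 for all genes and -0.23 for the 2246 genes at a mean of 50 FPKM or more. After removal of the trends of the ratio with length, GC content and expression level, the median was -0.20, against -0.06 for all genes. EIF2B3 then turned to 0.11 and the other 4 stayed below 0, EIF2B4 by less than 0.01. EIF2B4 was the most abundant, at 114 FPKM in the perturbed library and 137 in the control. EIF2B2 had the lowest ratio, at 53.1 against 82.1 FPKM, 1.55-fold lower (1.46 to 1.64). EIF2B5, the catalytic subunit, was at 26.3 against 39.0 FPKM, 1.48-fold lower (1.33 to 1.65). EIF2B1 was at 58.1 against 78.3 FPKM. EIF2B3 was closest to the control, at 52.3 against 57.7 FPKM, with an interval that included 1. The summed level of the complex was 304 FPKM in the perturbed library and 394 in the control.

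The eIF2 alpha kinases among the members went apart, within 2-fold. EIF2AK1, the heme-regulated kinase HRI, was at 42.1 FPKM in the perturbed library, against 52.2 in the control. EIF2AK4, the amino acid sensor GCN2, was at 6.52 against 4.49 FPKM, 1.45-fold higher (1.22 to 1.74). EIF2AK1 was the more abundant in both libraries.

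The subunits of eIF3, the scaffold that holds the other factors on the small subunit, did not share a direction. Of 13 genes that passed, 1, EIF3B, was higher, against 7.85% of all genes. Ratios were above 0 for 6 and below for 7, where 53.5% of all genes were below 0. The median log2 ratio was -0.0014, but EIF3E, EIF3G, EIF3J and EIF3M turned from below to above 0 under scaling to a common sum. The summed level was 3905 FPKM in the perturbed library and 3919 in the control. EIF3B, a core scaffold subunit, was at 67.9 against 30.3 FPKM, 2.25-fold higher (2.06 to 2.45). EIF3A, the large subunit it binds, was at 44.5 against 27.5 FPKM, 1.62-fold higher (1.52 to 1.73). EIF3I, which binds EIF3B in the same module, had the lowest ratio, at 661 against 1042 FPKM, 1.58-fold lower (1.53 to 1.62). The ratio of EIF3B to EIF3I was 0.103 in the perturbed library and 0.0290 in the control, 3.54-fold higher (3.23 to 3.88). These are the highest and the lowest ratio of the complex, paired after the values were seen, a choice that the interval does not cover.

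EIF3K was the most abundant eIF3 gene in the perturbed library, at 1369 FPKM there and 1005 in the control, 1.36-fold higher (1.31 to 1.41). EIF3H and EIF3F, the pair with MPN domains, were at 123 against 89.6 and at 273 against 220 FPKM. EIF3D, a subunit that can itself bind caps, was at 166 against 245 FPKM, 1.48-fold lower (1.41 to 1.55). EIF3E and EIF3L were level between the libraries, at 109 FPKM in each for EIF3E and 96.3 in each for EIF3L. EIF3G, EIF3M and EIF3J lay between 1.05-fold and 1.10-fold below the control in the deposited values, a direction that turned as given above. EIF3C was at 0.0443 and 0.0302 FPKM and its near-identical copy EIF3CL at 2.13 and 3.38 FPKM. Both values are uncertain, because fragments of the copies cannot be told apart, and the sum of the pair lies far under the other core subunits.

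**Figure D2:**
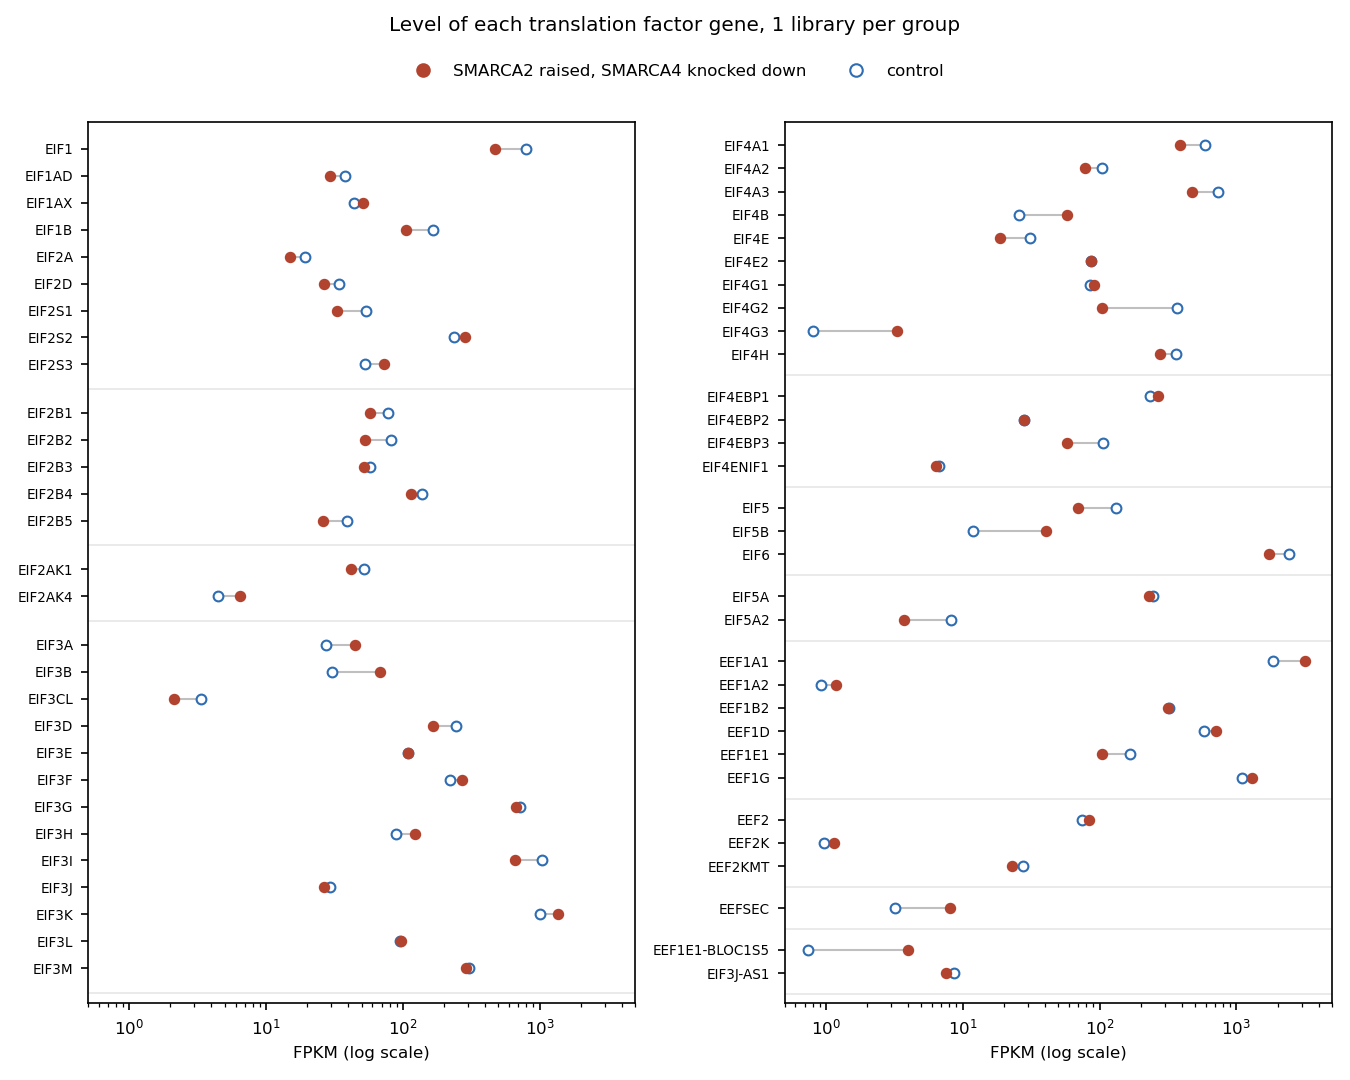
FPKM on a log scale for the 60 members that passed the filter, with the perturbed library as filled points and the control as open points, 1 library each, in blocks by complex. EIF4G3, EIF4G2, EIF5B and EEFSEC have the most separated points among the factors, and EIF3E, EIF3L, EIF4E2 and EIF4EBP2 have points that coincide.

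Of 10 genes of the cap-binding and helicase group that passed the filter, 2 were higher and 1 lower, against 7.85% and 7.61% of all genes. EIF4G3, 1 of the 2 higher genes, passed through the perturbed library alone, so its ratio could only be above 0. EIF4G2 encodes DAP5, an eIF4G relative that lacks the eIF4E-binding part and serves cap-independent initiation. It was at 105 FPKM in the perturbed library, against 367 in the control, 3.49-fold lower (3.36 to 3.63), on about 3511 and 12535 fragments. EIF4G1, the main scaffold of eIF4F, was at 91.7 against 84.7 FPKM, 1.08-fold higher (1.04 to 1.13). EIF4G3, a weakly expressed scaffold, was at 3.32 against 0.800 FPKM, 4.15-fold higher (2.95 to 6.08), on about 164 and 40.4 fragments. Its log2 ratio was 0.91 after the trends were removed and 0.52 with a pseudocount of 5 FPKM, both within 2-fold.

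The proportions within the eIF4G family therefore differed between the libraries. EIF4G2 made up 52.5% of the family's FPKM in the perturbed library and 81.1% in the control. EIF4G1 made up 45.9% and 18.7%. EIF4G2 stood at 1.14 times the level of EIF4G1 in the perturbed library and 4.33 times in the control, 3.78-fold lower (3.57 to 4.01). The summed level of the family was 200 FPKM against 452, and most of that gap was EIF4G2.

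EIF4B, which stimulates the helicase, was at 58.0 FPKM in the perturbed library, against 25.8 in the control, 2.24-fold higher (2.04 to 2.46). EIF4H, which stimulates it in a similar way, was at 277 against 363 FPKM, 1.31-fold lower (1.27 to 1.35). The helicase genes themselves had ratios below 0. EIF4A1 was at 390 against 594 FPKM, 1.52-fold lower (1.47 to 1.58). EIF4A2 was at 78.1 against 105 FPKM, and EIF4A3, a paralog of the exon junction complex and the most abundant gene of the group in both libraries, at 477 against 738 FPKM. The ratio of EIF4B to EIF4A1 was 0.149 in the perturbed library and 0.0435 in the control, 3.42-fold higher (3.09 to 3.78). EIF4A1 held 83.3% of the FPKM of the cytoplasmic helicase pair in the perturbed library and 85.0% in the control, so the pair kept its proportion.

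EIF4E, the cap-binding protein, was at 18.7 FPKM in the perturbed library, against 31.2 in the control, 1.67-fold lower (1.35 to 2.05). EIF4E2, a cap-binding paralog linked to translational repression and to hypoxia, was at 86.0 and 85.9 FPKM. EIF4E made up 17.8% of the family's FPKM in the perturbed library and 26.6% in the control. EIF4E3, which also binds caps, was under 1 FPKM in both, at 0.480 against 0.150 FPKM, on about 25 and 8 fragments. EIF4E1B, known from oocytes, rested on about 1 fragment in each library, so no fold is read from it.

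The 4E-binding proteins, which hold eIF4E away from eIF4G, were all within 2-fold. EIF4EBP1 was the most abundant, at 266 FPKM in the perturbed library and 235 in the control, 1.14-fold higher (1.06 to 1.21). EIF4EBP2 was at 28.2 and 28.0 FPKM. EIF4EBP3 was at 58.2 against 107 FPKM, 1.83-fold lower (1.57 to 2.14), and is uncertain because its exons are part of the read-through locus ANKHD1-EIF4EBP3, at 1.35 and 1.38 FPKM. EIF4ENIF1, which carries eIF4E into the nucleus and into P-bodies, was at 6.36 and 6.67 FPKM. The ratio of EIF4EBP1 to EIF4E was 14.2 in the perturbed library and 7.51 in the control, 1.89-fold higher (1.52 to 2.35).

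**Figure D3:**
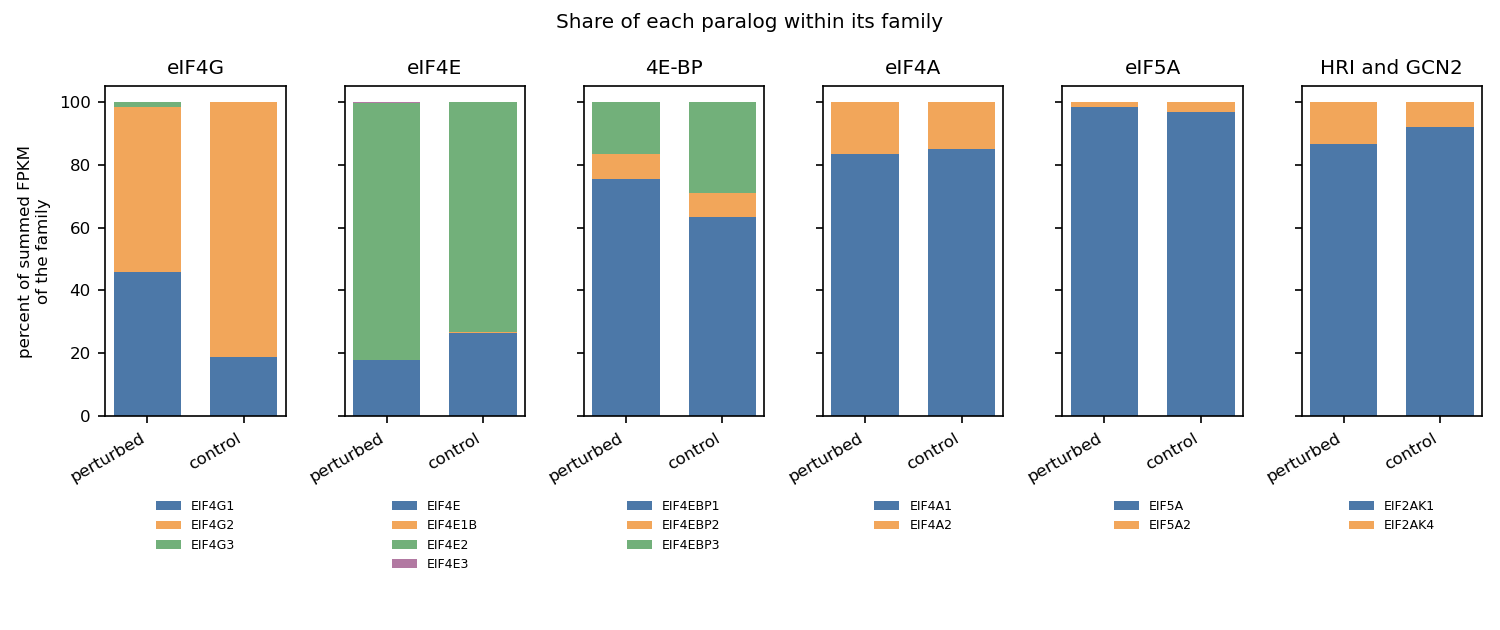
Percent of the summed FPKM of each family held by each paralog, with the perturbed library left of the control in each panel, 1 library each. EIF4G2 takes 52.5% of the eIF4G family in the perturbed library and 81.1% in the control, while the eIF4A pair stays close to the control.

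The genes that act around subunit joining had ratios of opposite sign. EIF5B, the GTPase that joins the subunits, was at 40.9 FPKM in the perturbed library, against 11.8 in the control, 3.46-fold higher (3.15 to 3.79), the highest ratio of the factors by the log2 measure. EIF5, which makes eIF2 hydrolyse its GTP at the start codon, was at 69.3 against 132 FPKM, 1.91-fold lower (1.82 to 2.00), just inside the 2-fold rule. The ratio of EIF5 to EIF5B was 1.69 in the perturbed library and 11.2 in the control, 6.60-fold lower (5.96 to 7.33). This pair joins the lowest and the highest ratio of the group and was chosen after the values were seen. The interval does not cover that choice. EIF6 was at 1747 against 2409 FPKM, 1.38-fold lower (1.35 to 1.41).

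EIF5A, the hypusine-carrying factor that helps ribosomes past proline-rich stretches, was at 229 FPKM in the perturbed library, against 245 in the control. Its paralog EIF5A2, a gene amplified in some ovarian cancers, was at 3.74 against 8.19 FPKM, 2.19-fold lower (1.83 to 2.62). Its log2 ratio with the pseudocount was -0.95, just inside the rule, and it passed the rule at -1.11 with a pseudocount of 0.1 FPKM. EIF5A2 held 1.61% of the pair's FPKM in the perturbed library and 3.23% in the control. The EIF5A-like gene EIF5AL1 was at 0.186 and 0.0911 FPKM and, as a near copy, is uncertain.

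None of the 6 eEF1 genes was past 2-fold, and 4 had ratios above 0, of which EEF1A2, which passed through the perturbed library alone, turned below 0 after the trends were removed, while EEF1B2 turned above it there and under each other scaling. EEF1A1, the main carrier of aminoacyl-tRNA, was at 3162 FPKM in the perturbed library, against 1865 in the control, 1.70-fold higher (1.68 to 1.71). It was the gene of rank 29 by level in the perturbed library and of rank 74 in the control. EEF1A1 has many processed copies in the genome, so its value depends on how the authors treated fragments that map to several places, which is not given in the sources used here. It made up 20.9% of the members' FPKM in the perturbed library and 12% in the control. EEF1A2, the form of muscle and neurons, was at 1.19 and 0.917 FPKM.

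The subunits that recharge eEF1A were closer to the control. EEF1G was at 1307 FPKM in the perturbed library, against 1093 in the control, EEF1D at 707 against 585 FPKM and EEF1B2 at 317 against 322 FPKM. EEF1E1, a scaffold of the aminoacyl-tRNA synthetase complex rather than a core elongation factor, had the lowest ratio, at 104 against 166 FPKM, 1.59-fold lower (1.44 to 1.77). Without EEF1A1 the summed eEF1 level was 2437 against 2167 FPKM, 1.12-fold higher.

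EEF2 was at 84.1 FPKM in the perturbed library, against 75 in the control, 1.12-fold higher (1.06 to 1.19). Its inhibitory kinase EEF2K was at 1.14 and 0.965 FPKM, with an interval that included 1. The EEF2 methyltransferase EEF2KMT was at 23.0 and 27.7 FPKM. EEFSEC, the elongation factor that delivers selenocysteine, was at 8.01 against 3.21 FPKM, 2.49-fold higher (1.83 to 3.44), on about 144 and 59.1 fragments. With a pseudocount of 5 FPKM its log2 ratio was 0.66, within 2-fold.

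The read-through locus EEF1E1-BLOC1S5 was at 4 FPKM in the perturbed library, against 0.740 in the control, 5.40-fold higher (1.71 to 20.6), on about 20.1 and 3.80 fragments. It shares exons with EEF1E1 and BLOC1S5, whose own values were both below the control, so the assignment of these fragments is uncertain. A neighbouring read-through locus, BLOC1S5-TXNDC5, was at 14.7 against 0.637 FPKM and was picked out after its value was seen. The antisense RNA EIF3J-AS1 was at 7.57 and 8.59 FPKM. The library method does not mark strand, and fragments of an antisense RNA cannot be told apart from those of its partner where they overlap. EIF1AX-AS1, EIF1B-AS1 and EIF2B5-AS1 were under 1 FPKM in both libraries, and EIF2B5-AS1 was at 0 in both.

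The C followed by 4 pyrimidines was sought at the annotated first base and on the gene's strand alone, because a TOP start belongs to the RNA. It was at the start of 4.07% of all 35116 promoter windows of the RefSeq table. Counting a gene that has it at any annotated start, 12 of 46 factors with a window had it (26.1%), against 7.49% of 8748 genes that passed the filter. The 12 were EEF1A1, EEF1B2, EEF2, EIF2A, EIF2D, EIF2S3, EIF3D, EIF3F, EIF3K, EIF3M, EIF4A2 and EIF4B. EEF1A2, EEF1D, EEF2KMT, EIF2AK1, EIF2S2, EIF3A, EIF3CL, EIF3E, EIF3G, EIF3H, EIF3L and EIF4EBP1 had no window. Factors with the start had a median log2 ratio of 0.07, with 6 of 12 above 0, and those without it a median of -0.37, with 11 of 34 above 0. Over all genes the medians were 0.04 with the start and -0.08 without it. The sets overlap widely, since EIF3D, with the start, was at -0.56 and EIF5B, without it, at 1.71. The motif was chosen with the values in view, and the difference was not tested. A match describes the letters and shows no control of these mRNAs. Factors without a match may still have a TOP start, because only the annotated first base was searched.

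**Figure D4:**
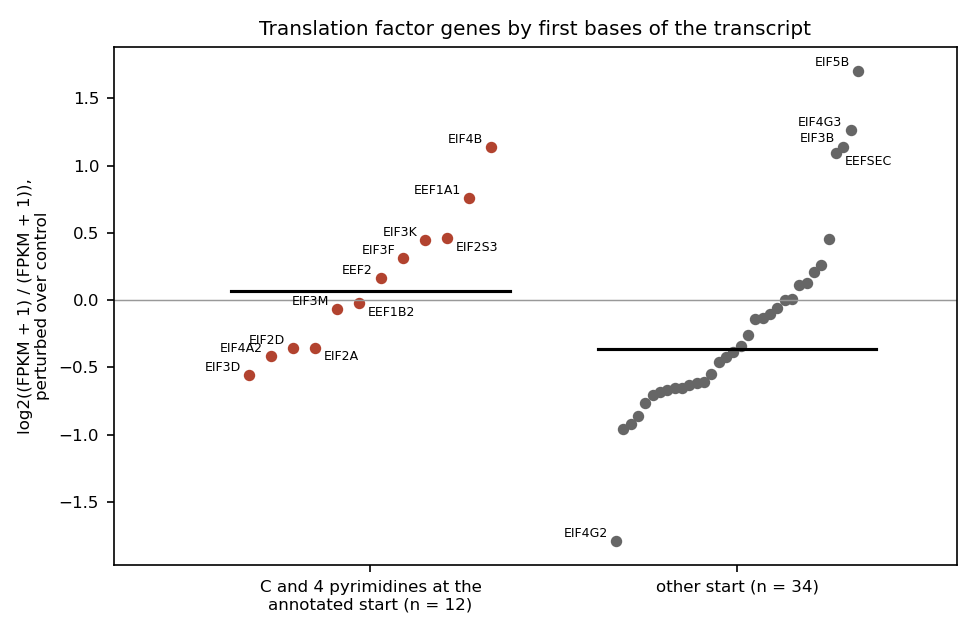
Log2 ratio of perturbed over control for the 46 factors with a promoter window, in the order of their ratios, with a C and 4 pyrimidines at the annotated start on the left and other starts on the right. Horizontal bars are medians, 0.07 for 12 genes and -0.37 for 34.

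Transcripts of 4000 bases or more had higher ratios in these libraries. Across the 60 members, which are not independent replicates and share the same libraries, Spearman's rho between log2 ratio and transcript length was 0.19, and across 11345 genes it was 0.16. The 14 members of 4000 bases or more had a median of 0.12, against 0.21 for all such genes. The 26 members under 2000 bases had a median of -0.15, against -0.13. After the trends were removed, EIF5B was at 1.77, EIF3B at 1.30, EIF4B at 1.29 and EIF4G2 at -1.66, all still past 2-fold.

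**Figure D5:**
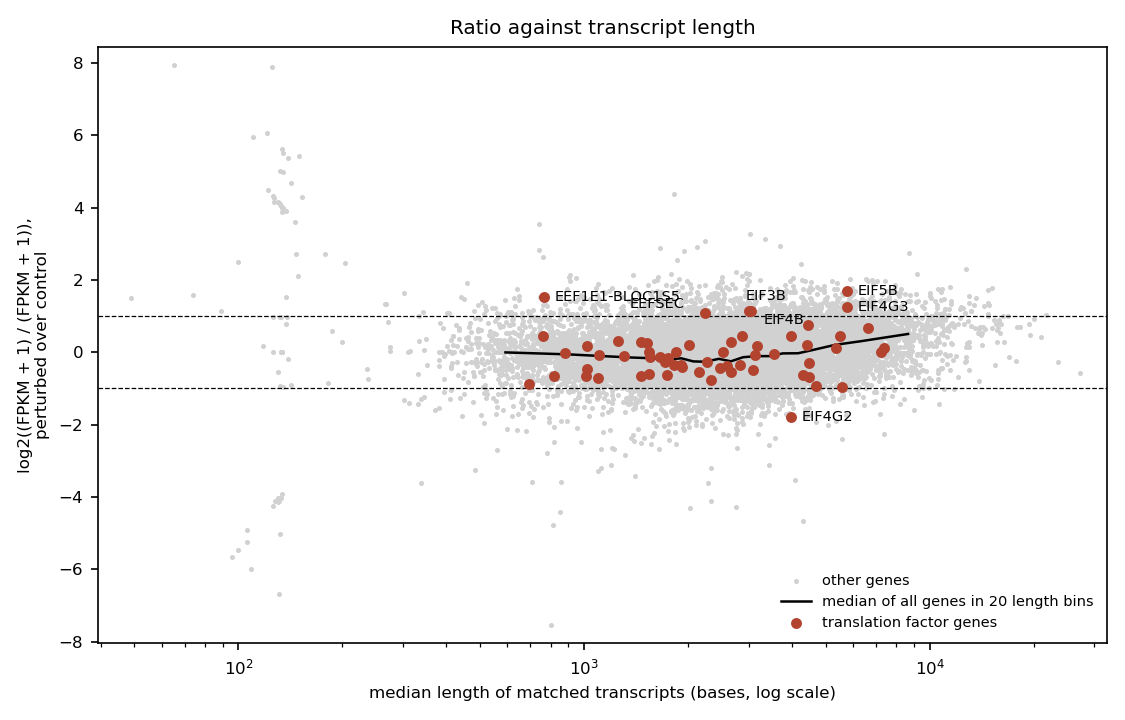
Log2 ratio of perturbed over control against the median length of a gene's matched transcripts, for the 60 members and 11345 genes in all, with the line as the median of all genes in bins of length. The 7 members beyond the dashed 2-fold lines are named, and EIF5B, EIF4G3 and EIF4G2 have transcripts of about 4000 bases or more.

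Other genes of translation were taken from lists chosen from knowledge of the pathway. Of 83 measured, none of them a member, 77 passed the filter. Of these 2 were higher and 6 lower, 2.60% and 7.79%, against a background of 7.85% and 7.61%, so the share of lower genes is near the background and that of higher genes below it. The median was -0.17. Both higher genes belong to the poly(A)-binding group. They were LARP1, which binds TOP mRNAs, at 43.4 FPKM in the perturbed library and 16.2 in the control, 2.67-fold higher (2.48 to 2.89), and the poly(A)-binding protein PABPC4, at 64.3 against 28.2 FPKM, 2.28-fold higher (2.09 to 2.49). PABPC1, which bridges the tail to eIF4G, was at 191 against 112 FPKM. PAIP2, which displaces it, was at 128 against 178 FPKM. PAIP1, a partner of PABPC1 that stimulates translation, was at 30.5 against 71.4 FPKM, 2.34-fold lower (2.09 to 2.62). With the trends removed its log2 ratio was -0.92, within 2-fold.

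Of 9 termination and rescue genes, 8 had ratios below 0, as did 53.5% of all genes, and the median log2 ratio of the list was -0.25. NEMF was above the control, at 6.82 against 4.09 FPKM. PELO, which frees stalled ribosomes, was lower, at 30.3 FPKM in the perturbed library and 107 in the control, 3.52-fold (3.30 to 3.77). ETF1, the release factor, was at 56.5 against 64.9 FPKM. Among scanning partners BZW1, an eIF5 mimic that competes for eIF2, was at 67.0 against 160 FPKM, 2.39-fold lower (2.24 to 2.55). With the trends removed its log2 ratio was -0.90, within 2-fold. Of 9 genes of hypusine and diphthamide synthesis, which modify eIF5A and eEF2, DPH2 was lower, at 53.7 against 141 FPKM, 2.63-fold (2.41 to 2.86), and the hypusine enzyme DHPS was at 116 against 154 FPKM. PPP1R15A, which directs phosphatase to eIF2 alpha, was at 24.8 against 67.9 FPKM, 2.74-fold lower (2.47 to 3.05). PPP1CA, a catalytic subunit of that phosphatase, was at 563 against 599 FPKM. The kinases left out by name were at 6.55 against 4.72 FPKM for EIF2AK2, the PKR gene, and at 2.13 against 3.80 FPKM for EIF2AK3, the PERK gene.

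In the selenocysteine pathway SEPHS2, which makes the selenium donor, was lower, at 22.8 FPKM in the perturbed library and 57.0 in the control, 2.50-fold (2.25 to 2.79), opposite to EEFSEC. TRNAU1AP, which binds the selenocysteine tRNA, was at 31.7 against 31.0 FPKM. None of 13 mitochondrial translation factors was past 2-fold, with a median of -0.39 and TUFM at 251 against 330 FPKM. None of the 12 kinase-pathway genes that passed, MTOR and RPS6KB1 among them, was past 2-fold, with a median of 0.15 and RHEB the most abundant at 207 against 246 FPKM. Of the other methyltransferases of elongation factors, none of 4 was past 2-fold, with METTL13, which modifies eEF1A, at 35.3 against 65.9 FPKM.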

How the data were processed

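RNA-seq was available for 1 perturbed and 1 control culture of OVSAHO cells. Per the labels' protocols, total RNA came from a miRNeasy Micro extraction, and SMART-Seq HT cDNA was turned into Nextera XT libraries, which do not mark strand. The authors deposited FPKM per gene symbol, per the file headers. Tools listed in the submitters' processing notes are Cuffdiff 2.2.1, TopHat2 2.1.1, SAMtools 0.1.18 and Bowtie2 2.2.8, with hg19 as the build. Not given in the sources used here are the gene annotation, how fragments with several map positions were treated and whether the libraries were scaled to each other.

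Depth was estimated from genes with 1 transcript in GENCODE 29 that matches RefSeq. The depth and an effective length shortened by 200 bases were chosen jointly. The choice put as many low values as possible at 1 fragment, in a window 2% wide, and the share of low values there is not given. The method was tested on data simulated with the same transcript lengths and a shortening of 200 bases. Such a test does not cover a mismatch with the annotation the authors used. For a transcript of 2 kb, 1 FPKM then stands for about 15.9 fragments in the perturbed library and 16.3 in the control. Fragment numbers per gene used the median length of its matched transcripts of at least 300 bases. Intervals are exact binomial (Clopper-Pearson), and for ratios of genes within a library exact conditional intervals of the odds ratio, at 95%. PCR copies are not independent molecules. Every member matched a transcript.

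Folds are ratios of deposited FPKM. Log2 ratios add a pseudocount of 1 FPKM, which understates changes of weakly expressed genes. The members and gene lists were chosen with earlier results of these data known, and the gene pairs compared within a library after their values were seen. Named are all members, with values for those past 2-fold, the most abundant and the extremes of each complex, and the paralog families. From the other lists, genes past 2-fold and the most abundant were to be named. Some other genes are given because the text needs them, chosen after their values were seen. Promoter windows come from RefSeq on GRCh38.p14 and were matched by symbol for 54 of the 68 members, and no other coordinates are used because the files use hg19. Python 3.11.15, pandas 2.3.3, NumPy 2.4.6, SciPy 1.17.1 and matplotlib 3.10.9 were used. Other pseudocounts, scalings, filters, fold rules and removal of cubic trends were tried as alternatives. The result for 1 marker of other cell types is not reported here.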

Additional observations from a re-analysis of the deposited data

How the results depend on the processing

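The count of higher members was 6 and that of lower members 1. Both counts were unchanged under each other scaling and without a filter. A filter of 5 FPKM in either library gave 4 higher members of 55, against 6.96% of all genes. A filter of 1 FPKM in both libraries gave 4 of 56, against 5.45%. EIF4G3 and EEF1E1-BLOC1S5 were the members lost under both filters. Removal of trends on length, GC content and level gave 5 higher members, against 5.91% of all genes, with EIF4G3 lost. The count of lower members stayed at 1 in each of these settings. A pseudocount of 0.1 FPKM gave 2 lower members, with EIF5A2 added, and one of 5 FPKM gave 3 higher members, EIF3B, EIF4B and EIF5B. With a 1.5-fold rule 13 members of 60 were lower and 8 higher, against 21.3% and 19.1% of all genes. With a 4-fold rule 0 were higher and 0 lower. EIF3B, EIF4B, EIF5B and EIF4G2 were past 2-fold under each of the 6 other pseudocounts, scalings and trend removal. The median log2 ratio of -0.09 turned sign with scaling to a common sum (0.048), centring on the median ratio (0.021) and a trimmed mean of ratios (0.024). The medians of all genes under those settings were 0.06, 0.05 and 0.04. The sign of 11 members turned under at least 1 setting, each of them within 0.2 of 0 on the log2 scale. No paired analysis was possible because each group has 1 library. At this depth a fold of a member under 1 FPKM in both libraries rests on at most about 25 fragments in a library.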
